A study of Cricetulus griseus with 27 samples.

Results

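cgr-miR-140-5p and cgr-miR-340-3p were 2 of the 4815 mature miRNA entries counted in CHO-K1 cells, in the microparticles (MPs) those cells shed and in their exosomes. They were picked by name because earlier results of these libraries had both at a lower level in standard exosomes than in standard MPs. That choice used the standard libraries, so differences of the 2 members among standard groups are given below as a description with no test. At least 1 count was found for 924 entries, both members among them. Both passed the filter on low counts in the fits of the 9 standard, the 18 stressed and all 27 libraries. In the 18 libraries of stressed cultures, where an entry had to reach 6.52 CPM in at least 3 libraries, cgr-miR-140-5p did so in 3 cell and 1 vesicle library, and cgr-miR-340-3p in 6 cell and 3 vesicle libraries. The vesicle library of cgr-miR-140-5p, of osmotic exosomes, held 1 count of it. Those of cgr-miR-340-3p held 1966 counts (ammonia MPs), 6 (ammonia exosomes) and 1 (osmotic exosomes), so 2 of them rest on few reads. cgr-miR-140-5p thus passed only through cells.

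CHO-K1 is an epithelial-like line from Chinese hamster ovary that is widely used to make recombinant proteins. The 27 libraries were exosomes, MPs and cells of an osmotic culture (given 60 mM NaCl, which added 120 mOsm per L), of an ammonia culture (given 9 mM NH4Cl at the start) and of a standard culture with neither addition. All 9 groups had 3 libraries, labelled biological replicates, and all cultures were unmodified CHO-K1 in 15 mL with 6 mM glutamine, harvested on day 3. The sources used here do not give the steps by which the fractions were separated, and a table of miRNAs holds no protein by which MPs or exosomes could be checked. Whether each replicate was a culture of its own is not stated, so p-values measure the spread between these libraries, which may be partly technical.

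The 9 standard libraries were made with a combined mRNA and miRNA kit (NextFlex Combo-Seq) and the 18 stressed ones with a TruSeq Small RNA kit, in separate pools, so kit, pool and stress cannot be told apart wherever both kinds of culture are compared. Totals ran from 26516 counts in an osmotic exosome library to 10374430 in an osmotic cell library, and standard cells had 132154 to 180764. Levels are given in CPM, the count scaled to the library's summed counts. A group at 0 is read against the level that 3 counts over its summed total would give, called its floor. Stressed vesicles were patchy: of the entries that averaged at least 50 CPM, the share with more than 99% of their CPM in 1 library was 11.3% in osmotic exosomes, 40.8% in osmotic MPs, 23.6% in ammonia exosomes and 27.6% in ammonia MPs, against 0 in every cell group and every standard group.

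A miRNA hairpin is cut into a short duplex whose strands, the 5p and 3p arms, can each be loaded into an Argonaute protein and guide it to partly matching messenger RNAs. Most hairpins leave 1 arm in excess, and the ratio of arms can differ between tissues. Exosomes form inside endosomes and are set free when these fuse with the plasma membrane, MPs bud from the plasma membrane directly, and the miRNA content of either can differ from that of the parent cell. miR-140 is best known from cartilage in mammals, where its arms act in chondrocyte growth. miR-340 is known mainly from studies of human tumour cells, in which it restrains growth. In the RefSeq annotation of the Chinese hamster assembly CriGri-PICRH-1.0, Mir140 lies within the bounds of Wwp2, a ubiquitin ligase gene, and Mir340 within those of Rnf130, a RING finger gene, with no second gene spanning either. The assembly served for these names only, since the files name no hamster build.

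In standard culture cgr-miR-140-5p was highest in MPs and lowest in exosomes. It had 35.01, 40.3 and 23.9 CPM in standard exosomes, against 110.0, 91.1 and 99.7 CPM in standard MPs and 75.7, 71.9 and 59.8 CPM in standard cells. No library of one fraction overlapped with another: every exosome library was below every cell library, and every cell library below every MP library. The means were 33.1 ± 8.38 CPM in exosomes, 100.3 ± 9.44 in MPs and 69.1 ± 8.30 in cells (SD, n = 3 each). These rest on 80, 110 and 59 counts in exosomes and 90, 109 and 125 in MPs, but only 10, 13 and 9 in cells. On the log2 scale the level was −1.72 ± 0.32 (SE) in exosomes over MPs, −1.24 ± 0.37 in exosomes over cells and +0.48 ± 0.36 in MPs over cells. CPM is a share of a library, so fewer copies per vesicle and fewer vesicles that carry the miRNA cannot be told apart.

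cgr-miR-340-3p followed the same order of means, with a wider spread. It had 66.1, 49.5 and 22.7 CPM in standard exosomes, against 134, 150 and 153 CPM in standard MPs and 60.5, 77.4 and 133 CPM in standard cells. The MP libraries lay close together and above all others, the highest cell library came just under the lowest MP library, and exosomes overlapped with cells. The third exosome library was the lowest of its group, as it was for cgr-miR-140-5p. The means were 46.1 ± 21.9 CPM in exosomes, 146 ± 10.1 in MPs and 90.3 ± 37.8 in cells. Counts were 151, 135 and 56 in exosomes, 110, 180 and 192 in MPs and 8, 14 and 20 in cells. The log2 fold change was −1.79 ± 0.42 in exosomes over MPs, −1.17 ± 0.47 in exosomes over cells and +0.62 ± 0.46 in MPs over cells. Without the third cell library, MPs over cells came to +1.21.

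**Figure D1:**
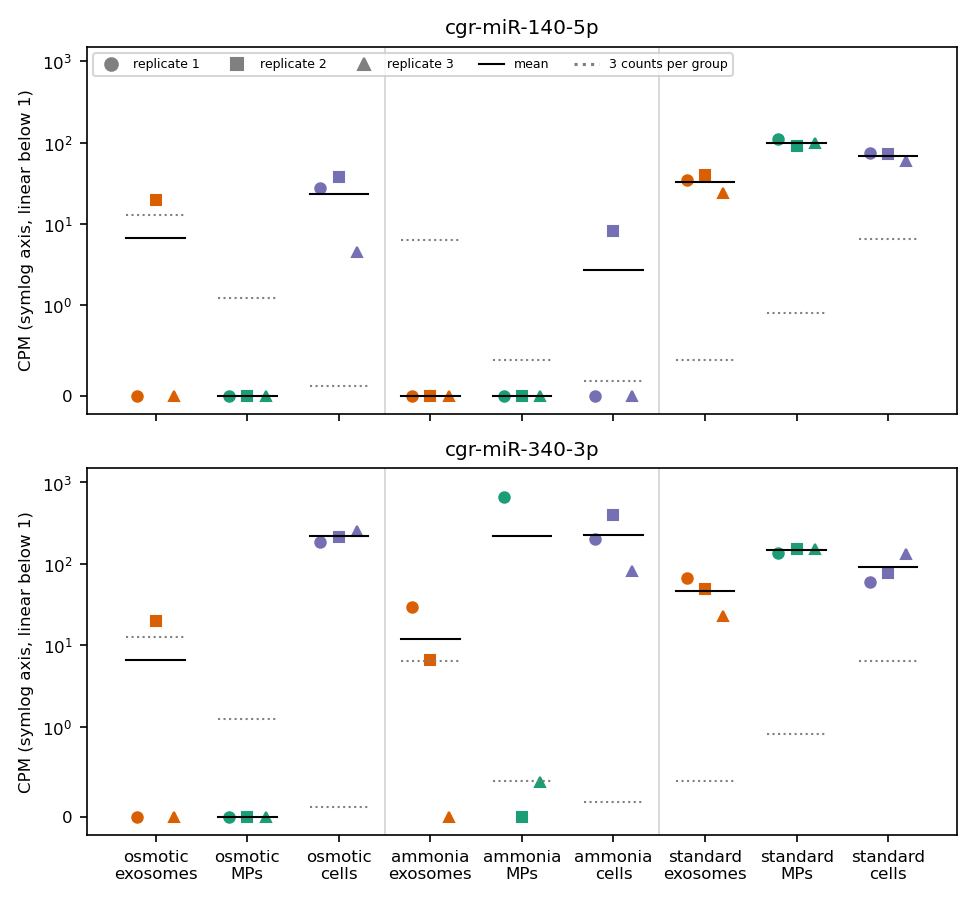
CPM of cgr-miR-140-5p and cgr-miR-340-3p in each library (symlog vertical axis, linear below 1 CPM) by culture and fraction. Black bars are means of 3 libraries and dotted grey lines the level of 3 counts over a group's summed total. Standard libraries all lie above 20 CPM with MPs on top, while of the 12 stressed vesicle libraries 1 had counts of cgr-miR-140-5p and 5 had counts of cgr-miR-340-3p.

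The members were not alone in this difference. Of 351 entries tested in standard exosomes against MPs, 29.6% passed at an adjusted p under 0.05, 16% in the lower direction, and in 19.4% every exosome library lay below every MP library, as for both members. The calls were 48 higher and 56 lower, and 67 higher and 42 lower with the authors' effective library sizes. In MPs against cells 31.3% passed, and in 27.1% every MP library lay above every cell library, as for both members. In exosomes against cells 51.6% passed, and in 22.8% every exosome library lay below every cell library, as for cgr-miR-140-5p but not for cgr-miR-340-3p. The median log2 fold change of all tested entries was +0.01 in exosomes over MPs, +0.07 in MPs over cells and +0.09 in exosomes over cells.

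Ordered by the log2 fold change of exosomes over MPs, cgr-miR-340-3p stood 18th and cgr-miR-140-5p 21st from the lowest of all 351 entries. To name neighbours, the order was limited to the 90 entries that passed and averaged at least 50 CPM in either fraction, where the members stood 4th and 6th. The members were chosen on this same difference, so their low places in both orders are in part fixed and support nothing. Just below cgr-miR-340-3p were hsa-miR-1244 (−3.45) and mmu-miR-6238 (−3.26), both named for other species. Between the members was mmu-let-7e-5p, of the growth-restraining let-7 family (−1.76). Just above cgr-miR-140-5p were mmu-miR-340-3p (−1.67), the mouse-named entry of the same arm as cgr-miR-340-3p, and cgr-let-7a (−1.66).

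**Figure D2:**
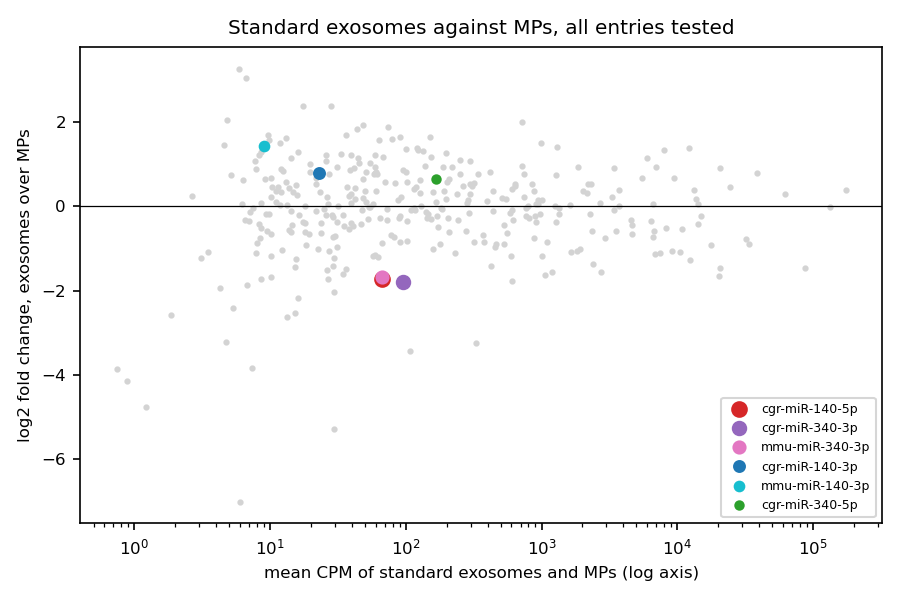
Log2 fold change of standard exosomes over standard MPs against mean CPM of the 2 fractions (log axis) for all 351 entries tested, each a grey point, with the 6 entries of the 2 hairpins coloured. cgr-miR-140-5p (−1.72), cgr-miR-340-3p (−1.79) and mmu-miR-340-3p (−1.67) lie below 0 and the entries of the opposite arms above it.

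The table names 6 entries for the 2 hairpins: both arms of each under hamster names, and the 3p arm of each also under a mouse name. Reads of an arm can be split between its hamster and mouse names in any proportion by the counting, so the mouse-named entries are not independent of the hamster-named ones. mmu-miR-340-3p had 47.7, 34.1 and 21.5 CPM in standard exosomes, against 74.5, 91.1 and 132 CPM in standard MPs and 22.7, 44.3 and 19.9 CPM in standard cells. As the other name of an arm chosen on these libraries, it is described with no test too. Its log2 fold change was −1.67 ± 0.41 in exosomes over MPs, +1.70 ± 0.52 in MPs over cells and +0.03 ± 0.54 in exosomes over cells, the last with a sign that turned to −0.03 under RLE scaling. Every exosome library lay below every MP library, as in 19.4% of entries.

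Relative to MPs, the opposite arms were not low in exosomes. cgr-miR-340-5p, the partner of cgr-miR-340-3p, had 195, 228 and 212 CPM in standard exosomes, against 148, 111 and 107 CPM in standard MPs and 106, 88.5 and 73.1 CPM in standard cells. All exosome libraries lay above all MP and cell libraries, which held for 29.9% of entries against MPs and 34.2% against cells. It was higher in exosomes than in cells (+1.06 ± 0.28, adjusted p = 0.00723). Against MPs the log2 fold change was +0.66 ± 0.25 with an adjusted p of 0.0622, which missed the threshold here and passed it with DESeq2 (0.00258). In MPs over cells it was +0.40 ± 0.29 (adjusted p = 0.322).

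cgr-miR-140-3p, the partner of cgr-miR-140-5p, was lowest in MPs on average. It had 36.8, 31.5 and 21.9 CPM in standard exosomes, against 18.3, 8.36 and 20.7 CPM in standard MPs and 83.2, 71.9 and 0 CPM in standard cells. MP libraries lay below all exosome libraries, as in 29.9% of entries, and the third cell library, with no count, set the spread in cells. None of its differences passed: exosomes over MPs gave +0.79 ± 0.65 (adjusted p = 0.397), MPs over cells −1.72 ± 0.74 (0.0905) and exosomes over cells −0.93 ± 0.71 (0.306). Without the third cell library the adjusted p was 0.0101 in MPs against cells and 0.0426 in exosomes against cells, in both with the vesicles lower. That library was singled out by its own value, so these 2 p-values support nothing. mmu-miR-140-3p was sparse, at 13.8 CPM on average in exosomes, 4.27 in MPs and 11.995 in cells, and did not pass in any of the 3 comparisons (adjusted p from 0.275 to 0.956).

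**Figure D3:**
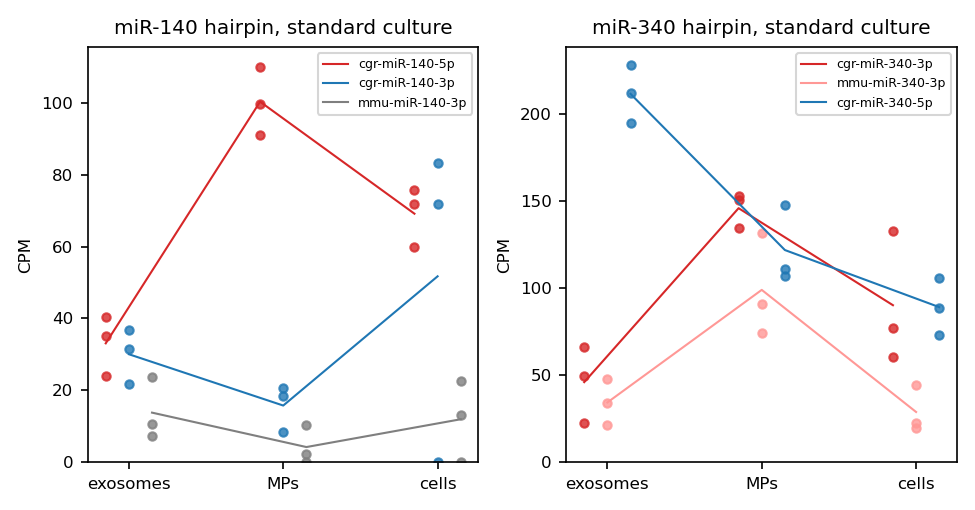
CPM of the entries of each hairpin in standard exosomes, MPs and cells, with a point per library and lines joining the group means. The members, in red, peak in MPs at 100.3 and 146 CPM, while cgr-miR-340-5p is highest in exosomes at 212 CPM and cgr-miR-140-3p is lowest in MPs at 15.8 CPM.

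Within a library, the share of a hairpin's hamster-named counts that fell on the member's arm removes any effect of scaling. It describes counts, not molecules, since arms can be captured with unequal ease by a kit. cgr-miR-140-5p held 48.8%, 56.1% and 52.2% of the miR-140 counts in standard exosomes, against 85.7%, 91.6% and 82.8% in standard MPs and 47.6%, 50% and 100% in standard cells. The MP shares lay above all exosome shares. Over summed counts the share was 52.6% in exosomes (95% exact Clopper-Pearson interval 48.0 to 57.2), 86.4% in MPs (82.5 to 89.7) and 57.1% in cells (43.2 to 70.3). These intervals cover counting error alone and leave out the spread between libraries. The members were chosen as lower in standard exosomes than in standard MPs, so a lower share in exosomes is in part fixed by that choice.

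For miR-340 the lowest share was in exosomes. cgr-miR-340-3p held 25.3%, 17.8% and 9.67% of the counts of its hairpin in standard exosomes, against 47.6%, 57.5% and 58.9% in standard MPs and 36.4%, 46.7% and 64.5% in standard cells. Every exosome share lay below every MP and every cell share, and MPs overlapped with cells. Summed counts gave 17.7% in exosomes (16.02 to 19.5), 55.4% in MPs (52.0 to 58.7) and 50.6% in cells (39.4 to 61.8). The same limits of counting error and of the choice of the member hold here.

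**Figure D4:**
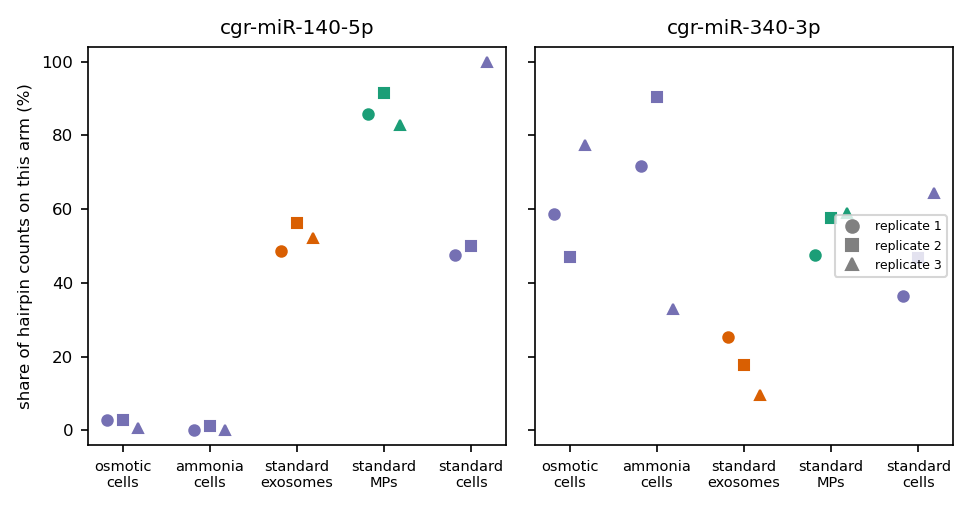
Percent of a hairpin's hamster-named counts on the member's arm, a point per library, in stressed cells and in the 3 standard groups; stressed vesicles, with few counts, are not shown. cgr-miR-140-5p held over 80% in standard MPs and under 3% in stressed cells, and cgr-miR-340-3p held 9.67% to 25.3% in standard exosomes and more in all other groups shown. Stressed and standard libraries also differ in kit and pool, which cannot be told apart from culture.

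In the osmotic culture the members were found in cells and hardly at all in vesicles. cgr-miR-340-3p had 0, 1 and 0 counts in osmotic exosomes and 0 in every osmotic MP library, against 1539, 1774 and 2621 counts in osmotic cells. The cell libraries stood at 187, 214 and 253 CPM. MPs had a floor of 1.22 CPM, which puts the level at least 181-fold lower in MPs than in cells, for counting error only. The adjusted p was 0.0169 with the filter on low counts and 0.0772 without it. Of all 332 entries 48.5% passed in the lower direction, and the median entry stood at −7.05 on the log2 scale. Without any 1 of the 3 MP libraries the adjusted p of cgr-miR-340-3p was 0.0525 to 0.0720. In exosomes over cells the log2 fold change was −5.14 ± 2.63 (adjusted p = 0.200), and pooled counts put exosomes 52.0-fold lower, with a counting interval of 9.32 to 2053.

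cgr-miR-140-5p was seldom found outside the same cells. It had 0, 1 and 0 counts in osmotic exosomes and 0 in every osmotic MP library, against 226, 312 and 47 counts in osmotic cells, which are 27.5, 37.7 and 4.53 CPM. The level in MPs was at least 17.8-fold lower than in cells, with an adjusted p of 0.0645, or 0.220 without the filter. The filter kept this member through its counts in cells, so a low level in stressed vesicles is in part fixed by it, and its p-values there support nothing. In exosomes over cells the log2 fold change was −1.80 ± 2.62 (adjusted p = 0.608), and the counting interval of the pooled ratio, 0.916 to 203-fold lower, takes in no difference. For both members every osmotic MP library lay below every cell library, as it did for 63.9% of entries, and the same held for cgr-miR-340-3p in exosomes, as for 61.7%. In exosomes against cells 0% of entries passed with edgeR, 79 entries had an unadjusted p under 0.05, and DESeq2 called 16. No fold of exosomes against MPs can be given, since either member had 1 count in exosomes and 0 in MPs.

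The other entries of the hairpins were also low in osmotic MPs. cgr-miR-140-3p had 0, 2 and 0 counts in osmotic MPs, against 7924, 10887 and 8050 in osmotic cells (adjusted p = 0.0225). mmu-miR-340-3p was at 0 in MPs and at least 34.5-fold lower than in cells (adjusted p = 0.0125). The filter kept mmu-miR-340-3p through cells alone, so a low level in MPs is in part fixed by it and its p-values here support nothing. In this comparison 48.5% of all 332 entries passed in the lower direction. Without any 1 of the 3 MP libraries cgr-miR-140-3p did not pass (adjusted p from 0.0612 to 0.0768), nor did mmu-miR-340-3p without the second (0.0543) or the third (0.0529). cgr-miR-340-5p had 0, 1 and 2 counts in MPs, against 1088, 1994 and 765 in cells, and missed the threshold (adjusted p = 0.0751). In osmotic exosomes the partner arms varied widely: cgr-miR-140-3p had 1987, 2 and 0 counts, high in 1 library, and cgr-miR-340-5p 0, 358 and 460, high in 2. Neither differed from cells at the threshold (adjusted p = 0.340 and 0.200), and without its first exosome library the log2 fold change of cgr-miR-140-3p was −6.03 in place of +2.86.

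In the ammonia culture cgr-miR-140-5p was close to the limit of detection. It had no count in ammonia exosomes or ammonia MPs, against 0, 56 and 0 counts in ammonia cells. MPs were at least 7.84-fold lower than cells by pooled counts, with an adjusted p of 0.123. That bound rests on the second cell library, without which both groups are at 0 and no fold can be given. No difference between exosomes and cells was detectable at this depth, because the pooled 3.14 CPM of the cells lies under the exosome floor of 6.32 CPM. Of all 332 entries 32.5% passed in ammonia MPs against cells and 9.04% in exosomes against cells.

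In ammonia MPs cgr-miR-340-3p came almost wholly from 1 library. It had 6, 1 and 0 counts in ammonia exosomes, against 1966, 0 and 1 in ammonia MPs and 1177, 2689 and 428 in ammonia cells, where it stood at 204, 393 and 81.7 CPM. The first MP library held 99.9% of the group's CPM. MPs over cells gave +0.11 ± 1.98 (adjusted p = 1.00), whose sign turned to −0.03 with library size alone. Without the first MP library it was −9.68 with an adjusted p of 0.0107, which supports nothing, since leaving out the library with the counts fixes a low level. Exosomes over cells gave −4.19 ± 2.31 (adjusted p = 0.152), with every exosome library below every cell library, as in 55.7% of entries. Exosomes over MPs gave −4.29 ± 2.32 (adjusted p = 0.219), which turned to +5.42 without the first MP library. In that last comparison 0.301% of entries passed.

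The mouse-named entry of the same arm did not share the high MP library. mmu-miR-340-3p had 3, 0 and 0 counts in ammonia MPs, against 133, 388 and 394 in ammonia cells. It was 128-fold lower in MPs by pooled counts, with a counting interval of 43.7 to 623. The adjusted p was 0.0129, and 0.0515 without the second MP library. The filter kept this entry through cells alone, so a low level in MPs is in part fixed by it and these p-values support nothing. The partner arms were each high in the third ammonia MP library, not the first. cgr-miR-340-5p had 0, 0 and 953 counts in ammonia MPs, against 466, 284 and 873 in cells (adjusted p = 0.889), and cgr-miR-140-3p 1, 1 and 842, against 5015, 4793 and 1638 (adjusted p = 0.591). Without the third MP library both were lower in MPs than in cells (adjusted p = 0.0313 for cgr-miR-340-5p and 0.0379 for cgr-miR-140-3p). Leaving out the library with the counts fixes a low level, so both of these p-values support nothing.

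Between the stressed cultures the members' levels in cells did not differ at the threshold. cgr-miR-340-3p averaged 218 ± 32.9 CPM in osmotic cells and 226 ± 157 in ammonia cells (SD, n = 3 each), a log2 fold change of −0.41 ± 1.98 (adjusted p = 0.997). cgr-miR-140-5p averaged 23.2 ± 16.97 CPM in osmotic cells and 2.73 ± 4.73 in ammonia cells, a log2 fold change of +2.60 ± 2.16 (adjusted p = 0.997). The first and second osmotic cell libraries lay above all ammonia cell libraries for cgr-miR-140-5p, and the third did not. In this comparison 0% of entries passed with edgeR and 13 had an unadjusted p under 0.05. In MPs, cgr-miR-340-3p had 0 counts in osmotic libraries against 1967 in ammonia libraries and was at least 215-fold lower (adjusted p = 0.0338), where 19.3% of entries passed. The ammonia counts are those of the first library: without it 1 count is left against 0 and no fold can be given. In exosomes, cgr-miR-340-3p gave −1.36 ± 2.62 (adjusted p = 0.9903), on 1 count in osmotic and 7 in ammonia libraries. There 0% of entries passed with edgeR, 61 had an unadjusted p under 0.05 and DESeq2 called 30.

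Set against standard cells, the 2 members pointed in opposite directions in stressed cells, though neither difference passed. cgr-miR-340-3p stood at +2.02 ± 1.65 on the log2 scale in osmotic over standard cells (adjusted p = 0.417) and at +2.38 ± 1.67 in ammonia over standard cells (adjusted p = 0.300). Every osmotic cell library lay above every standard cell library, as in 32.9% of 420 entries. cgr-miR-140-5p stood at −0.81 ± 1.35 in osmotic over standard cells (adjusted p = 0.741) and at −3.64 ± 1.48 in ammonia over standard cells (adjusted p = 0.0772). All stressed cell libraries lay below all standard cell libraries, as in 24% of entries for the osmotic and 32.6% for the ammonia culture. The 2 comparisons share the standard cells. With RLE scaling the ammonia difference of cgr-miR-140-5p passed (adjusted p = 0.0255). Without the second ammonia cell library, which holds all its counts there, the adjusted p was 6.42e-04. That value supports nothing, since leaving out the library with the counts fixes a low level. Of all entries 18.1% passed in the osmotic and 24.5% in the ammonia comparison, and the median entry stood at +1.11 and +0.84, so the members' values are to be read against a shift of that size. Culture, kit and pool cannot be told apart here.

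The share of the miR-140 counts on the 5p arm was far lower in libraries of stressed cells than in those of standard cells. Culture, kit and pool cannot be told apart in this contrast, and a kit can capture the arms with unequal ease. cgr-miR-140-5p held 2.77%, 2.79% and 0.580% of the hairpin's counts in osmotic cells and 0, 1.15% and 0 in ammonia cells, against 47.6% to 100% in standard cells. Summed counts gave 2.13% in osmotic, 0.487% in ammonia and 57.1% in standard cells. The partner arm cgr-miR-140-3p stood at 964, 1314 and 776 CPM in osmotic cells and 870, 701 and 313 CPM in ammonia cells, against 0 to 83.2 CPM in standard cells. Its difference from standard cells did not pass in either culture (osmotic +5.11 ± 2.23, adjusted p = 0.102; ammonia +4.78 ± 2.20, adjusted p = 0.109), and it passed in both when the 9 cell libraries were fitted alone (0.00130 and 0.00143). For miR-340 the shares overlapped: cgr-miR-340-3p held 58.6%, 47.1% and 77.4% in osmotic cells and 71.6%, 90.4% and 32.9% in ammonia cells, against 36.4% to 64.5% in standard cells.

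Over all 9 groups cgr-miR-140-5p ran from standard MPs through standard cells, standard exosomes, osmotic cells, osmotic exosomes and ammonia cells down to the 3 groups at 0, which were osmotic MPs, ammonia MPs and ammonia exosomes. Neighbours did not overlap among the first 3 groups of that order and overlapped further down. The places from osmotic exosomes down are not resolved. The osmotic exosome mean of 6.67 CPM came from 1 count and lay under that group's floor of 12.7 CPM. Ammonia cells averaged 2.73 CPM, under the ammonia exosome floor of 6.32 CPM. cgr-miR-340-3p ran from ammonia cells (226 CPM) through ammonia MPs (221), osmotic cells (218), standard MPs (146), standard cells (90.3), standard exosomes (46.1), ammonia exosomes (11.98) and osmotic exosomes (6.67) to osmotic MPs (0). Neighbours did not overlap at 2 places in that order, between osmotic cells and standard MPs and between standard MPs and standard cells. Its osmotic exosome mean also came from 1 count, under the floor. Both orders mix standard and stressed groups, for which culture, kit and pool cannot be told apart.

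Of 304 entries that reached 50 CPM in at least 1 group, those whose 9 group means of log2(CPM + 1) followed cgr-miR-140-5p most closely were cgr-miR-369-3p (Pearson r = 0.949), cgr-miR-21-5p (0.925), mmu-miR-203-3p (0.924), cgr-miR-195 (0.922) and cgr-miR-3102 (0.922). For cgr-miR-340-3p they were cgr-miR-15b-3p (0.976), cgr-miR-222-3p (0.969), cgr-miR-708 (0.954), mmu-let-7a-1-3p (0.943) and cgr-miR-18a-3p (0.942). These are descriptions over 9 points that share libraries, kit and depth. With all 27 libraries in place of means, 2 of the 5 named for cgr-miR-140-5p and 0 of the 5 named for cgr-miR-340-3p stayed among the nearest. cgr-miR-369-3p, the nearest to cgr-miR-140-5p, had 955 CPM in standard exosomes, 988 in standard MPs and 787 in standard cells. It thus did not share the low level in standard exosomes. In the osmotic culture it had 6.67 CPM in exosomes, 0 in MPs and 153 in cells. In the ammonia culture it had 0 CPM in exosomes, 0.130 in MPs and 67.4 in cells. Its likeness thus lies in lower levels in stressed libraries and, among these, in vesicles. Culture, kit and pool cannot be told apart in the former.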

How the data were processed

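Small RNA of 27 libraries was analysed from read counts per mature miRNA entry that the authors deposited, made from reads grouped on the mature sequence, per the file headers. The submitters' processing notes name FastQC 0.10.1, cutadapt 2.8 and the builds GRCh38, GRCm38 and Rnor_6.0, and the sources used here give no counting tool. The deposited columns called CPM are a signal the authors scaled by an effective library size (0.0595 to 2.15 times the total), used as an alternative scaling. The 54 columns per sample of a second table were not used.

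edgeR 4.0.16 in R 4.3.3 was run on the counts with its quasi-likelihood test, TMM scaling and filterByExpr, and p-values were adjusted by Benjamini-Hochberg over all entries tested. Adjusted p-values are from edgeR unless DESeq2 1.42.0 is named, and SEs derive from its F statistic. Fits took the 9 standard, the 18 stressed or all 27 libraries. Intervals and floors cover counting error alone, because without molecular identifiers PCR copies of a molecule count separately. Named entries were the members, every miR-140 or miR-340 entry, their neighbours by fold change and the 5 nearest by correlation. Seed families and motifs were not analysed here. Members, lists and tests were chosen with earlier results of these data known.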

Additional observations from a re-analysis of the deposited data

Results flagged for a closer look

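The difference of exosomes from MPs passed a test of change between the osmotic and the ammonia culture for the partner arms of both members, though the calls rested on few libraries. The interaction test in the fit of 18 stressed libraries gave an adjusted p of 0.0256 for cgr-miR-340-5p and 0.0313 for cgr-miR-140-3p. The share of all 332 entries that passed it is not given here, so the calls cannot be read as particular to these arms. cgr-miR-140-3p had 1987, 2 and 0 counts in osmotic exosomes and 0, 2 and 0 in osmotic MPs, with 3, 0 and 3 in ammonia exosomes and 1, 1 and 842 in ammonia MPs. cgr-miR-340-5p had 0, 358 and 460 counts in osmotic exosomes and 0, 1 and 2 in osmotic MPs, with 2, 0 and 1 in ammonia exosomes and 0, 0 and 953 in ammonia MPs. Without the third ammonia MP library the adjusted p was 0.246 for cgr-miR-140-3p, against 1.00 for cgr-miR-340-5p, and without the first osmotic exosome library it was 0.269 for cgr-miR-140-3p. Leaving out each of the 18 libraries in turn ended the call 12 times for cgr-miR-140-3p and 10 times for cgr-miR-340-5p. With the authors' effective library sizes neither passed (0.0615 and 0.0642), and with RLE scaling cgr-miR-140-3p did not (0.0506). With the replicate number as a block the adjusted p was 0.641 for cgr-miR-140-3p and 0.345 for cgr-miR-340-5p. This test was added after the data were seen. For the members themselves no interaction passed, the smallest adjusted p being 0.0848, for cgr-miR-340-3p in MPs against cells.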

How the results depend on the processing

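In standard culture both members kept their direction in all 3 fraction comparisons under every alternative. cgr-miR-140-5p moved to +0.68 with the authors' effective library sizes and +0.67 without a filter in MPs over cells, and to −0.86 with the authors' sizes in exosomes over cells. That scaling shifted the median of all entries by +0.19 in exosomes over MPs, +0.19 in MPs over cells and +0.39 in exosomes over cells. mmu-miR-340-3p in exosomes against cells reversed with RLE scaling (−0.026) and DESeq2 (−0.025). Counting mouse names too, the share on the member's arm was 43.5% for cgr-miR-140-5p in standard exosomes, and for cgr-miR-340-3p 27.3% in standard exosomes and 67.8% in standard MPs.

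In stressed cultures the members' adjusted p-values crossed the threshold or their folds changed sign as follows; the cause was not tested. cgr-miR-140-5p in osmotic MPs against cells passed with library size alone (0.0407) and in a fit of the 6 libraries compared (0.0169). Its difference in osmotic exosomes against cells reversed with DESeq2 (0.994) and in the 6 libraries (0.996). The filter kept this member through its counts in cells, so its p-values in osmotic vesicles support nothing. In ammonia against standard cells cgr-miR-140-5p passed with RLE (0.0255), library size alone (0.0423) and DESeq2 (0.00996). cgr-miR-340-3p in osmotic MPs against cells did not pass without a filter (0.0772). It reversed in ammonia MPs against cells with library size alone (1.00) and in osmotic against ammonia cells without a filter (1.00). In ammonia against standard cells it passed in a fit of the 6 libraries (0.0491) or of the 9 cell libraries (0.0426). cgr-miR-140-3p in ammonia MPs against cells reversed without a filter (1.00).

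The labels do not say whether a replicate number marks a shared culture. Same-numbered deviations correlated from −0.11 to 0.19, so the numbers were not taken to pair the libraries, which leaves pairing undecided. A fit with the replicate number as a block gave the same call, or a count within 1.5 times, in 47 of 59 results. With the replicate block, cgr-miR-340-3p reversed in ammonia MPs against cells (0.361) and in osmotic against ammonia cells (0.999), and did not pass in osmotic against ammonia MPs (0.0667), and cgr-miR-140-5p passed in ammonia against standard cells (0.0387). cgr-miR-140-3p in osmotic exosomes against cells (0.861) and cgr-miR-340-5p in ammonia MPs against cells (0.573) reversed under it. The block left 2 calls in ammonia exosomes against cells, 1 in osmotic against ammonia cells and 0 in osmotic against ammonia MPs.

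Counts of entries called moved by more than 1.5 times as follows. Osmotic MPs against cells went to 17 without a filter, from 171. Osmotic exosomes against cells, at 0, had 2 with RLE, 1 with the authors' sizes, 4 without a filter and 16 with DESeq2. Ammonia MPs against cells, at 108, had 7 without a filter. Ammonia exosomes against cells, at 30, had 15 with RLE, 14 with the authors' sizes, 18 without a filter and 4 in the 6 libraries. The 30 calls were 4 higher and 26 lower, and all 15 with RLE were higher. Ammonia exosomes against MPs, at 1, had 15 with RLE, 0 with library size alone, 11 with the authors' sizes, 63 with DESeq2 and 0 in the 6 libraries. Osmotic against ammonia culture had 14 in the 9 cell libraries (0 in the main comparison), in MPs 0 in the 6 libraries (64), and in exosomes 1 with the authors' sizes, 5 without a filter, 30 with DESeq2 and 1 in the 6 libraries (0). Osmotic against standard cells, at 76, had 48 with the authors' sizes, 191 in the 6 libraries and 160 in the 9 cell libraries, and ammonia against standard cells, at 103, had 171 and 185 in the latter pair of fits. The split of calls there was 39 higher and 37 lower, against 10 and 44 with RLE, in the osmotic comparison, and 44 and 59, against 10 and 79, in the ammonia comparison.

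Leaving out each library in turn gave these ranges. Log2 fold changes in standard MPs over cells were 0.49 to 0.72 for cgr-miR-140-5p and 0.37 to 1.21 for cgr-miR-340-3p. Adjusted p-values of cgr-miR-340-3p were 0.0368 to 0.0720 in osmotic MPs against cells, 0.0107 to 1.00 in ammonia MPs against cells, 0.112 to 0.402 in ammonia exosomes against MPs, 0.999 to 1.00 in osmotic against ammonia cells and 0.0178 to 0.129 in osmotic against ammonia MPs. That of cgr-miR-140-5p was 6.42e-04 to 0.184 in ammonia against standard cells. The log2 fold change of mmu-miR-340-3p in standard exosomes over cells ran from −0.28 to 0.69, and the adjusted p of mmu-miR-140-3p there from 0.702 to 0.842 with changes of sign. cgr-miR-140-3p in osmotic exosomes against cells ran from 0.383 to 0.618 and cgr-miR-340-5p in ammonia MPs against cells from 0.0313 to 1.00. Calls were 54 to 93 in standard exosomes against MPs, 1 to 136 in osmotic MPs against cells, 59 to 106 in ammonia MPs against cells, 1 to 4 in ammonia exosomes against cells and 0 to 10 in ammonia exosomes against MPs. They were 0 to 61 in osmotic against ammonia MPs, 0 to 2 in osmotic against ammonia exosomes, 36 to 63 in osmotic against standard cells and 67 to 102 in ammonia against standard cells. Depth limits standard cells, with 9 to 20 counts of a member in most libraries, and stressed exosomes, where floors of 12.7 and 6.32 CPM exceed some of the levels compared.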

Other observations

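Hamster and mouse names split an arm's counts less evenly in the libraries that held a stressed vesicle group's counts alone than in most others. Of the counts on the 340-3p arm, the mouse name took 0.152% in the first ammonia MP library (3 of 1969, 95% exact interval 0.0314 to 0.445). It took 14.1% to 19.5% in osmotic cells, 10.2% to 47.9% in ammonia cells, 40.8% to 48.6% in standard exosomes and 35.7% to 46.2% in standard MPs. On the 140-3p arm the mouse name took 0.0503% in the first osmotic exosome library (1 of 1988), 0.355% in the third ammonia MP library (3 of 845) and 8.25% to 10.7% in osmotic cells. In ammonia cells it took 8.69% and 6.81% in the first and second library and 0.0610% in the third (1 of 1639), so a very low share was not confined to vesicles. Standard exosomes stood at 39.1% and 18.9% on this arm in the first and second library. These shares were computed after the data were seen, over libraries with at least 100 counts on the arm, and no test was made.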
